A study of Mus musculus with 9 samples.

Results

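Prostaglandin synthesis and receptor genes were followed through 9 bulk RNA-seq libraries of neutrophils sorted from mouse lung. The set held 10 of 22064 genes listed. They were chosen by symbol, without a rule on measured values but with earlier results of these data known. All 10 had values and passed the filter on low counts that left 14108 genes to test. The genes were *Pla2g4a* and *Pla2g7* (phospholipases), *Ptgs1* and *Ptgs2* (cyclooxygenases), *Ptges*, *Ptges2* and *Ptges3* (prostaglandin E synthases), *Ptger2* and *Ptger4* (receptors) and *Hpgd* (inactivation). The libraries fell into 3 groups of 3. Ly6Ghigh and Ly6Glow neutrophils came from lungs of female BALB/c mice with macrometastasis (MACRO) after injection of 4T1-LM3 cells, a lung-tropic derivative of the 4T1 mammary carcinoma line, into the mammary fat pad. The third group, named NL, held Ly6Ghigh neutrophils from normal lung of female BALB/c mice. No mouse carried an engineered allele according to the labels, and the mice were young adults when obtained, with the age at sampling not stated in the sources used here. Cells were released with collagenase and sorted on CD45, CD11b and Ly6g, and the boundary between Ly6Ghigh and Ly6Glow was set at the inflection of the fluorescence histogram. Whether a library held 1 mouse or pooled mice was not stated, so the p-values measure the spread between these libraries, which may be technical. The NL libraries were assigned by their titles and treatment labels, since their description labels name the Ly6Ghigh group only.

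Prostaglandins are lipid mediators made from arachidonic acid. Cytosolic phospholipase A2 (*Pla2g4a*) frees arachidonic acid from membranes, a cyclooxygenase turns it into prostaglandin H2, and terminal synthases make prostaglandin E2 or other prostanoids from this intermediate. *Ptgs1* is the cyclooxygenase that most cells express steadily, and *Ptgs2* is its inducible counterpart, known for its rapid rise in inflamed tissue and in activated neutrophils. Prostaglandin E2 acts through 4 receptors, of which EP2 (*Ptger2*) and EP4 (*Ptger4*) raise cyclic AMP, and it is taken up and then oxidised by 15-hydroxyprostaglandin dehydrogenase (*Hpgd*), for which lung is a well-known site.

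Several facts of the whole series touch the results. Library totals ranged from 15267177 to 17841807 estimated counts, and member counts from 88 for *Hpgd* to 19174 for *Ptgs2*. Within groups, libraries varied more than counting noise, and the pairs with NL replicate 2 stood apart (chi-square per degree of freedom of 5.3 and 4.05 against 1.49 for the other NL pair). Without that library, all 30 values of members by comparison kept their direction and call. *Ly6g*, the gene of the sort, had 361 to 380.1 CPM (counts scaled to the normalised library size) in Ly6Ghigh, 385 to 403 CPM in Ly6Glow and 118 to 120.2 CPM in NL libraries. Its transcript did not pass the test between Ly6Glow and Ly6Ghigh neutrophils (log2 fold change 0.08, edgeR SE 0.033, adjusted p = 0.0577). The summed CPM of 12 neutrophil markers was 104950 to 107470 in Ly6Ghigh, 88850 to 90663 in Ly6Glow and 23723 to 23964 in NL libraries, with 4 called higher and 3 lower in Ly6Glow over Ly6Ghigh neutrophils. Over NL, all 12 were called higher in Ly6Ghigh and 11 in Ly6Glow libraries, with 0 called lower. NL libraries held more transcripts of other lung cells. The 11 epithelial markers summed to 1582 to 1731 CPM against 214 to 247 CPM in the 6 MACRO libraries, the 8 endothelial markers to 1054 to 1140 CPM against 152 to 194 CPM, and the 7 fibroblast markers to 541 to 573 CPM against 52.1 to 59.98 CPM. In bulk libraries, fewer cells of a type and less RNA per cell cannot be told apart.

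Sequences upstream of the cyclooxygenase genes are shown because these paralogs catalyse the same step yet had different patterns over the 3 groups. All 10 members matched an entry of the RefSeq promoter table (GRCm38.p6, the build that the submitters' notes call mm10), and the 250 bases before the start were searched on both strands for 7 motifs. Capitals mark the matches, with the plus strand printed 5′ to 3′ at chr1:150099781-150100030 for *Ptgs2* and chr2:36230176-36230425 for *Ptgs1*.
Ptgs2: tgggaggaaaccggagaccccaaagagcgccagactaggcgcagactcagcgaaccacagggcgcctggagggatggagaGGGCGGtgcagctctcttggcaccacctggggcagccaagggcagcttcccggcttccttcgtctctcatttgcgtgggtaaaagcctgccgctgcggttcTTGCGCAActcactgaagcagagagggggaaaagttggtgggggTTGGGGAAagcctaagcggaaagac
Ptgs1: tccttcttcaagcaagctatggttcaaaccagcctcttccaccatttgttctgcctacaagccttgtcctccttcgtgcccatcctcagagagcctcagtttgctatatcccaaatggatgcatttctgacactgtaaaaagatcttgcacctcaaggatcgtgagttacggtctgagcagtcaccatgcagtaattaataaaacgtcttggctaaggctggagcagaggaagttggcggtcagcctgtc
The *Ptgs2* window held 2 matches of the C/EBP motif TTNNGNAA, at 62 to 69 and at 18 to 25 bases before the start, and a GC box (GGGCGG) at 165 to 170 bases, none of which overlapped. These motifs occurred in 36.8% and 32.7% of 32851 promoter windows of the same length. The *Ptgs1* window, which lies inside the annotated span of the gene, held no match of these motifs or of the NF-kB consensus (7.25% of windows), the CRE half-site TGACG (17.8%), the AP-1 motif TGANTCA (6.75%), the E-box CACGTG (6.02%) or TATAAA (12.4%). The *Ptgs2* window also held no match of the NF-kB consensus, the CRE half-site, the AP-1 motif, the E-box or TATAAA. The GC content of the *Ptgs1* window was 48.0% against 61.6% for *Ptgs2* and a median of 52.4% over all windows. These matches describe letters and not bound sites. *Ptgs2* (chr1:150100031-150108234, plus strand) lies 138740 bases from *Pla2g4a* (chr1:149829618-149961290), the closest spacing of members that share a chromosome.

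Levels of different genes were compared only as FPKM, which the authors scaled for transcript length. In Ly6Ghigh neutrophils the order by mean FPKM was *Pla2g7* (268), *Ptgs2* (58.1), *Ptges3* (30.9), *Ptgs1* (18.3), *Ptges2* (10.5), *Pla2g4a* (6.91), *Ptger2* (5.59), *Hpgd* (4.69), *Ptges* (4.097) and *Ptger4* (4.05). From *Ptger2* downward, the libraries of each gene overlapped those of the next. Ly6Glow neutrophils had the same leading 5 genes in the same order, with *Pla2g7* at 457 FPKM and *Ptgs2* at 120.02 FPKM, whereas *Pla2g4a* was the ninth at 2.77 FPKM and overlapped with its neighbours *Ptges* and *Ptger4*. In NL neutrophils, *Ptgs2* (243 FPKM) and *Pla2g7* (242 FPKM) led with overlapping libraries. *Hpgd* was the fourth there at 38.2 FPKM, overlapping with *Ptges3* at 42.2 FPKM, and *Ptger4* (9.89 FPKM) and *Ptges* (9.36 FPKM) overlapped each other above *Pla2g4a*, *Ptges2* and *Ptger2*.

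**Figure D1:**
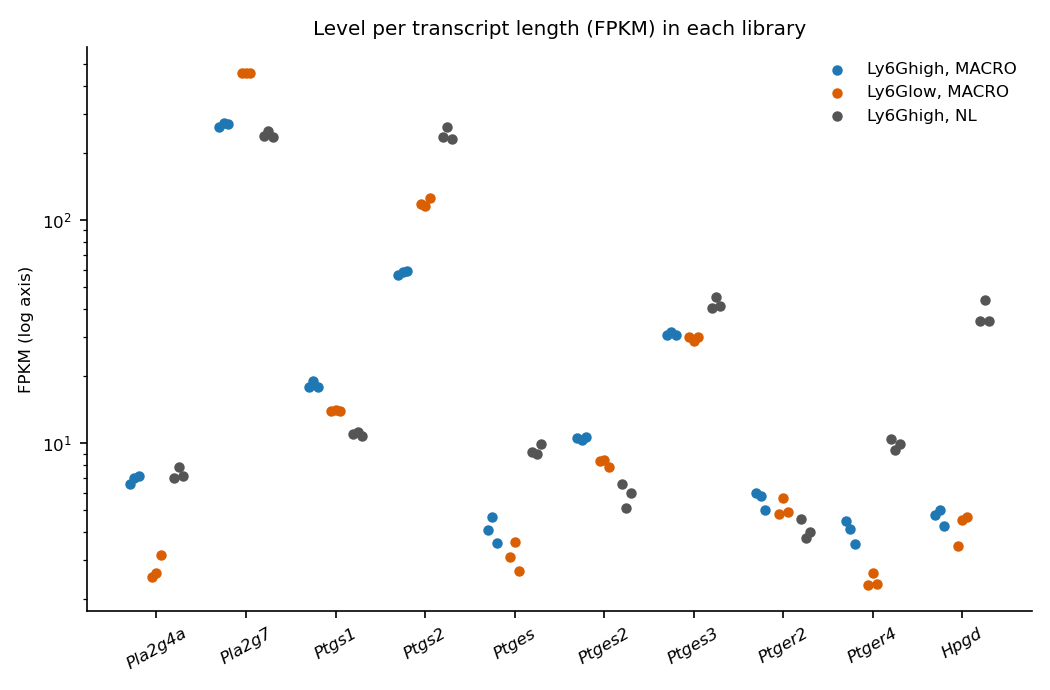
FPKM on a log axis for each of the 10 genes, with 1 point per library and 3 libraries per group. *Pla2g7* and *Ptgs2* lie above the other genes in all 3 groups, and *Hpgd* stands near *Ptges3* in the NL libraries alone.

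The comparison of Ly6Glow with Ly6Ghigh neutrophils asked how the 2 sorted fractions of macrometastatic lung differed. Ly6Glow neutrophils had more *Ptgs2* and *Pla2g7* and less *Pla2g4a* transcript, while the other 7 members were not called. A gene was called when its log2 fold change exceeded 0.58 in size and its adjusted edgeR p did not exceed 0.05. With these criteria 2 of 10 members were higher, against 9.29% of all tested genes, and 1 of 10 was lower, against 15.9%, so that 3 of 10 were called against a background of 25.2%. The CPM of the fractions did not overlap for 6 members, beside 62.1% of all tested genes. The median log2 fold change was 0.055 over the members and -0.041 over all tested genes. *Ptgs2* and *Pla2g7* belong to a gene set that the study displayed from these libraries, so their direction is not independent evidence.

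*Ptgs2* had 265, 272 and 273 CPM in the Ly6Ghigh libraries, 649, 637 and 687 CPM in the Ly6Glow libraries and 800.4, 875 and 783 CPM in the NL libraries. The 3 groups did not overlap, and the Ly6Ghigh libraries were the low ones. In Ly6Glow over Ly6Ghigh neutrophils the log2 fold change was 1.28 (edgeR SE 0.041, adjusted p = 1.08e-16), or 2.43-fold. Over 19 alternative fits it ranged from 1.03 to 1.35. Between Ly6Ghigh neutrophils of MACRO and NL lung, *Ptgs2* fell by 1.60 on the log2 scale (edgeR SE 0.040, adjusted p = 1.71e-19). Ly6Glow neutrophils were 0.32 lower than NL neutrophils on the log2 scale, a log2 fold change of -0.32 (edgeR SE 0.039, adjusted p = 1.28e-07), which was under the fold-change threshold. On log2(FPKM + 1) the latter difference was -1.01 and passed both criteria.

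*Ptgs1* showed another pattern. It had 81.3, 89.9 and 86.8 CPM in Ly6Ghigh, 87.2, 86.1 and 88.4 CPM in Ly6Glow and 47.1, 49.8 and 46.4 CPM in NL libraries. The MACRO fractions overlapped (log2 fold change 0.02, edgeR SE 0.047, adjusted p = 0.742), and both lay above NL, by 0.85 (edgeR SE 0.047, adjusted p = 1.94e-13) and 0.87 (edgeR SE 0.048, adjusted p = 1.71e-13). The call of Ly6Glow over NL was lost on log2(FPKM + 1) (0.32) and log2(FPKM + 0.1) (0.35). On FPKM the MACRO fractions did not overlap, at 17.9 to 19 for Ly6Ghigh and 13.9 to 14.1 for Ly6Glow, so the sign between them depended on the scale. *Ptgs1* is abundant in platelets. The 10 platelet markers summed to 42.3 to 45.6 CPM in Ly6Ghigh, 34.1 to 36.1 CPM in Ly6Glow and 39.3 to 41.2 CPM in NL libraries. Of the 8 tested, 1 was called higher and 4 lower in Ly6Ghigh over NL and 1 higher and 4 lower in Ly6Glow over NL neutrophils. Among them *Pf4* (0.55, 0.49 and 3.78 mean CPM in Ly6Ghigh, Ly6Glow and NL libraries) and *Ppbp* (0.28, 0.31 and 2.26 mean CPM) were highest in NL. *Gp1bb* (2.53, 0.84 and 0.59 mean CPM) and *Itgb3* (29.3, 18.7 and 20.1 mean CPM) were highest in Ly6Ghigh libraries. *Itgb3* made up the largest part of the sum in each group. The part of platelets in the *Ptgs1* result was not tested.

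The ratio of *Ptgs2* to *Ptgs1* within a library is free of library scaling. By FPKM it was 3.18, 3.08 and 3.28 in Ly6Ghigh, 8.48, 8.19 and 9.00 in Ly6Glow and 21.4, 23.2 and 21.6 in NL libraries. All 9 libraries had more *Ptgs2* than *Ptgs1* and the groups did not overlap. The ratio was 2.69-fold higher in Ly6Glow than in Ly6Ghigh neutrophils, and it was 6.94-fold and 2.58-fold higher in NL neutrophils than in Ly6Ghigh and Ly6Glow neutrophils. The exact two-sided permutation test gave p = 0.1 for each of the 3 comparisons (adjusted p = 0.1), the smallest that 3 libraries against 3 can give. The ratio of counts was lower in Ly6Glow (7.54 ± 0.211, SD, n = 3) and NL (17.1 ± 0.363, SD, n = 3) and nearly the same in Ly6Ghigh neutrophils (3.14 ± 0.119, SD, n = 3). The length by which a library's FPKM was divided, recovered from the counts and FPKM, was 4411 bases for *Ptgs2* in all 9 libraries. For *Ptgs1* it was 4303 to 4596 bases in Ly6Ghigh, 4888 to 5104 bases in Ly6Glow and 5561 to 5839 bases in NL libraries, with no overlap between groups. Among the other members, this length differed by group without overlap for *Ptges* (3402 to 3435, 3364 to 3370 and 3488 bases).

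**Figure D2:**
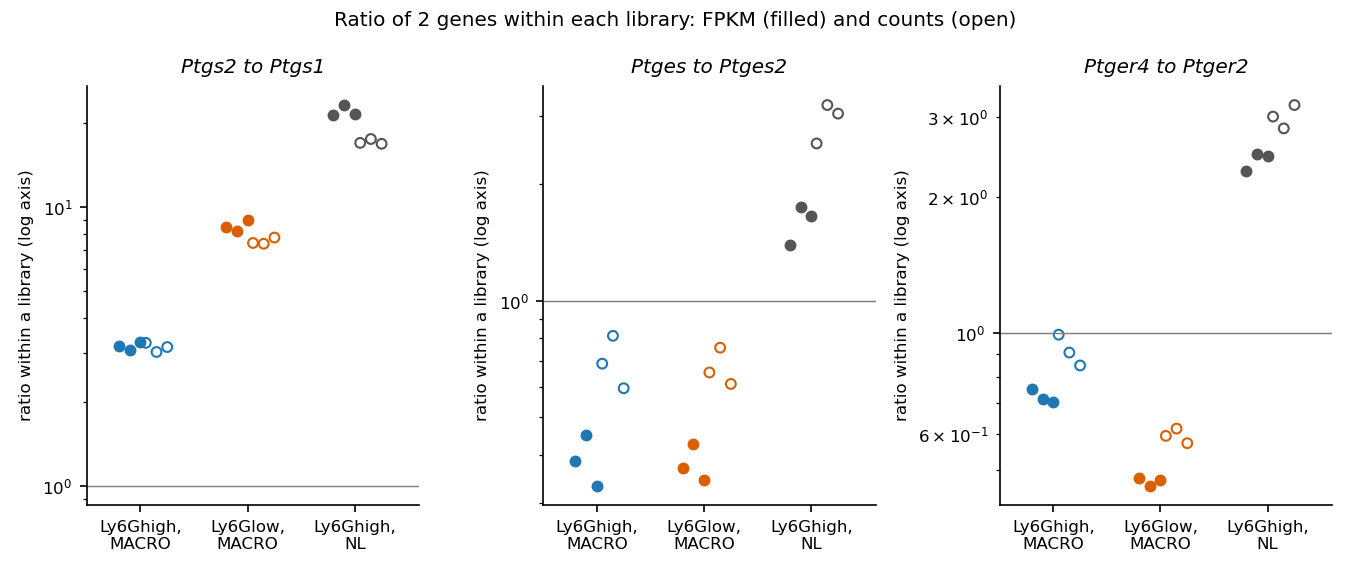
Ratio of 2 genes within each library on a log axis, from FPKM (filled points) and from counts (open points), for 3 gene pairs and 3 groups of 3 libraries. The *Ptgs2* to *Ptgs1* ratio steps from about 3.18 in Ly6Ghigh through 8.56 in Ly6Glow to 22.1 in NL neutrophils, and the other ratios are above 1 in the NL libraries alone.

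The phospholipases moved in opposite directions between the fractions. *Pla2g4a* had 19.6, 20.7 and 21.1 CPM in Ly6Ghigh, 8.77, 9.18 and 11.1 CPM in Ly6Glow and 15.2, 16.6 and 15.3 CPM in NL libraries. The Ly6Glow libraries were the low ones and no groups overlapped. The log2 fold change of *Pla2g4a* was -1.08 (edgeR SE 0.0901, adjusted p = 1.03e-09) in Ly6Glow over Ly6Ghigh and -0.69 (edgeR SE 0.0905, adjusted p = 3.29e-07) in Ly6Glow over NL neutrophils. The difference of 0.38 (edgeR SE 0.0745, adjusted p = 6.55e-05) between Ly6Ghigh neutrophils of MACRO and NL lung was under the fold-change threshold, and on FPKM these groups overlapped.

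*Pla2g7* encodes a secreted hydrolase of platelet-activating factor and oxidised phospholipids and does not feed cyclooxygenases directly. It led the MACRO libraries by FPKM, and had 533, 549 and 542 CPM in Ly6Ghigh, 1079, 1094 and 1088 CPM in Ly6Glow and 353, 364 and 346 CPM in NL libraries. Each group was clear of the others. The log2 fold change was 1.01 (edgeR SE 0.0303, adjusted p = 4.67e-17) in Ly6Glow over Ly6Ghigh and 1.62 (edgeR SE 0.0308, adjusted p = 1.36e-21) in Ly6Glow over NL neutrophils. In Ly6Ghigh neutrophils of MACRO over NL lung it was 0.61 (edgeR SE 0.0306, adjusted p = 3.2e-14), a call that was lost with upper-quartile scaling (0.42), at 10 counts or more in every library (0.44) and on log2(FPKM + 1) (0.15).

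Markers listed for other cell types differed between the MACRO fractions beside these 3 genes. The 12 alveolar macrophage markers summed to 1665 to 1708 CPM in Ly6Ghigh and 419 to 442 CPM in Ly6Glow libraries, with 8 of 12 called lower in Ly6Glow, and the 6 eosinophil markers to 109.8 to 118 CPM and 36.2 to 37.9 CPM, with 5 of 6 called lower (*Siglecf* is in both lists). Among the alveolar macrophage markers, *Chil3* had 1274 and 277 mean CPM, *Plet1* 63.6 and 3.32, *Ear1* 45.8 and 1.19 and *Atp6v0d2* 25.3 and 1.42, while *Marco* was at 0.83 and 0.54 mean CPM. *Chil3* made up most of the sum in both fractions and had 964 mean CPM in NL libraries, below Ly6Ghigh. Which cells carried *Chil3* was not tested. The list of 15 genes that tissue dissociation induces summed to 10825 to 10939 CPM in Ly6Ghigh, 13608 to 14221 CPM in Ly6Glow and 9901 to 10985 CPM in NL libraries, with 6 called higher and 3 lower in Ly6Glow over Ly6Ghigh. Of its members, *Egr1* had 298, 572 and 1134 mean CPM and *Btg2* 574, 966 and 1001 mean CPM, the order that *Ptgs2* had. *Fosb* (145, 204 and 697), *Nr4a1* (219, 253 and 571) and *Atf3* (122, 128 and 352) had that order too. Most of the 15 genes had another order. *Junb* had 1669, 2870 and 1324 mean CPM, and the reverse order held for *Hspa1a* (1146, 528 and 352) and *Hspa1b* (1302, 640 and 356). *Jun* (586, 386 and 384) had the reverse order too, with Ly6Glow and NL nearly level. The part of other cells and of dissociation in the results for *Ptgs2*, *Pla2g7* and *Pla2g4a* was not tested.

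**Figure D3:**
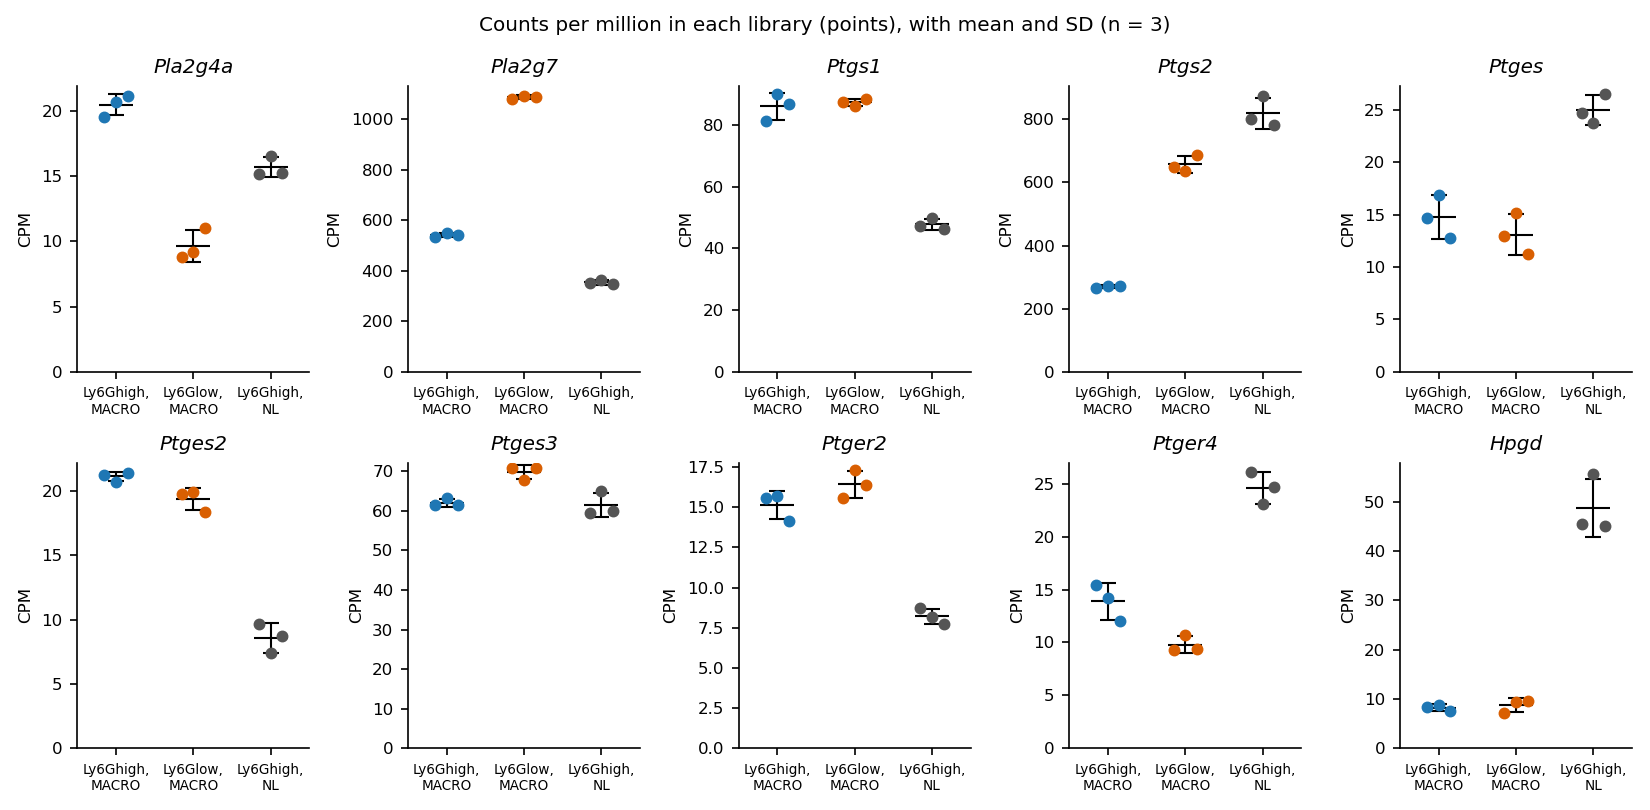
CPM of each member in each library (points), with the mean and SD of the 3 libraries of a group, on axes that start at 0. *Ptgs2* is lowest in Ly6Ghigh MACRO libraries, *Pla2g7* is highest and *Pla2g4a* lowest in Ly6Glow libraries, and *Hpgd*, *Ptges* and *Ptger4* are highest in NL libraries.

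The comparison of MACRO and NL lung within the Ly6Ghigh sort asked how libraries sorted under the same name differed. Their *Ly6g* transcript and their markers of neutrophils and other cells also differed, as given above. The part of cell content in the results over NL was not tested. *Hpgd*, *Ptgs2*, *Ptger4* and *Ptges* were lower and *Ptges2*, *Ptger2*, *Ptgs1* and *Pla2g7* were higher in MACRO lung. The 4 lower members stood against 36.6% of all tested genes and the 4 higher members against 26.3%, so that 8 of 10 were called beside a background of 62.9%. The groups did not overlap for 9 members, beside 85.2% of tested genes. In Ly6Glow over NL neutrophils, *Hpgd*, *Ptger4*, *Ptges* and *Pla2g4a* were called lower (background 40.8%) and *Pla2g7*, *Ptges2*, *Ptger2* and *Ptgs1* higher (background 28.7%). These 8 of 10 compare with 69.5% of tested genes, and 10 of 10 members did not overlap beside 86.8% of tested genes. Both comparisons share the NL libraries. Ly6Glow over NL changed the sorted fraction and the state of the lung together, so their parts cannot be told apart there. The median log2 fold change over the members was 0.195 and -0.07, and over all tested genes -0.0879 and -0.156. With most genes called, the number of members called says little about the members, and their sizes and directions are given one by one.

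*Hpgd* had 8.43, 8.85 and 7.49 CPM in Ly6Ghigh, 7.15, 9.41 and 9.68 CPM in Ly6Glow and 45.5, 55.6 and 45.2 CPM in NL libraries. The MACRO fractions overlapped each other and lay far below NL. Its log2 fold change of -2.56 (edgeR SE 0.0978, adjusted p = 2.52e-16) for Ly6Ghigh and of -2.47 (edgeR SE 0.103, adjusted p = 9.19e-16) for Ly6Glow over NL neutrophils was the furthest from 0 among the members, with NL 5.89-fold and 5.55-fold higher. Between the MACRO fractions it was 0.09 (edgeR SE 0.142, adjusted p = 0.633). *Hpgd* was highest in NL libraries, and so were many markers of other lung cells. The epithelial *Sftpc* had 53.3, 55.9 and 789 mean CPM and the endothelial *Kdr* 9.92, 10.4 and 161 mean CPM in the same order of groups. Their log2 fold changes in Ly6Ghigh over NL, -3.89 and -4.02, were larger in size than that of *Hpgd*. The epithelial *Hopx* went the other way (70.6, 86.0 and 60.8 mean CPM). All 8 endothelial and all 7 fibroblast markers and 10 of 11 epithelial markers were called lower in Ly6Ghigh neutrophils of MACRO over NL lung, with none at 0 in any group. The 12 alveolar macrophage markers summed to 2351 to 2385 CPM in the NL libraries, with 9 called lower in Ly6Ghigh and 11 in Ly6Glow over NL, whereas the 6 eosinophil markers summed to 40.6 to 43.3 CPM there, with 5 called higher in Ly6Ghigh and 3 in Ly6Glow over NL. The 12 monocyte and macrophage markers summed to 731 to 827 CPM in the MACRO and 1280.2 to 1313 CPM in the NL libraries, the 7 dendritic cell markers to 14.4 to 16.7 CPM and 48.2 to 53.6 CPM and the 9 T and NK cell markers with values to 33.6 to 51.7 CPM and 75.7 to 78.4 CPM. By their sums, B cell markers (28.1 to 47.3 CPM against 27.4 to 29.9 CPM) and basophil and mast cell markers (144 to 251 CPM against 84.6 to 86.7 CPM) were not higher in NL libraries, and erythroid markers reached 14.1 CPM there. *Kit* made up most of the basophil and mast cell sum (104, 225 and 58.3 mean CPM in Ly6Ghigh, Ly6Glow and NL libraries). *Gata2* of that list was highest in NL (14.4, 9.78 and 24.4). In Ly6Glow over Ly6Ghigh, 1 of that list was called higher and 4 lower. The part of other cells in the *Hpgd* result was not tested.

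The terminal synthases split in the comparisons with NL, where the part of other cells was not tested. *Ptges*, the inducible microsomal synthase, had 14.6, 16.9 and 12.8 CPM in Ly6Ghigh, 12.9, 15.1 and 11.2 CPM in Ly6Glow and 24.7, 23.7 and 26.5 CPM in NL libraries. It was lower in both MACRO fractions than in NL neutrophils, with a log2 fold change of -0.76 (edgeR SE 0.0908, adjusted p = 1.03e-07) for Ly6Ghigh and -0.93 (edgeR SE 0.0981, adjusted p = 1.21e-08) for Ly6Glow. *Ptges2*, a membrane-associated synthase, went the other way, with 21.3, 20.7 and 21.4 CPM in Ly6Ghigh, 19.7, 19.9 and 18.4 CPM in Ly6Glow and 9.66, 7.39 and 8.70 CPM in NL libraries. Its log2 fold change over NL was 1.30 (edgeR SE 0.0841, adjusted p = 3.25e-12) and 1.17 (edgeR SE 0.0891, adjusted p = 4.88e-11), the latter falling to 0.42 without a call on log2(FPKM + 1). Between the MACRO fractions neither was called (edgeR log2 fold change -0.18, adjusted p = 0.189, and -0.13, adjusted p = 0.19).

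Within each library, the ratio of *Ptges* to *Ptges2* by FPKM was 0.385, 0.45 and 0.333 in Ly6Ghigh, 0.369, 0.428 and 0.345 in Ly6Glow and 1.39, 1.75 and 1.66 in NL libraries. The MACRO fractions overlapped, and only the NL libraries had more *Ptges* than *Ptges2*. This ratio, and that of the receptors given later, was chosen after the values were seen and was not tested. *Ptges3*, better known as the HSP90 co-chaperone p23, had 61.4, 63.2 and 61.3 CPM in Ly6Ghigh, 70.8, 67.9 and 70.8 CPM in Ly6Glow and 59.3, 65.02 and 59.98 CPM in NL libraries. It was not called in any comparison, and its sign over NL depended on the scale, at 0.01 and 0.18 in the count model and -0.44 and -0.50 on log2(FPKM + 1).

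The cyclic AMP-coupled receptors also split in the comparisons with NL, and the part of other cells was again not tested. *Ptger4* had 15.4, 14.2 and 12 CPM in Ly6Ghigh, 9.26, 10.7 and 9.38 CPM in Ly6Glow and 26.1, 23.1 and 24.7 CPM in NL libraries. No groups overlapped, with NL the high and Ly6Glow the low group. Its log2 fold change was -0.83 (edgeR SE 0.0819, adjusted p = 4.87e-09) for Ly6Ghigh and -1.33 (edgeR SE 0.0929, adjusted p = 1.07e-11) for Ly6Glow over NL neutrophils. Between the MACRO fractions it was -0.51 (edgeR SE 0.105, adjusted p = 0.000316), under the fold-change threshold. It passed the threshold without Ly6Ghigh replicate 3 (-0.60) and on log2(FPKM + 0.1) (-0.71), which raised the number of members called lower from 1 to 2.

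*Ptger2* had 15.6, 15.7 and 14.2 CPM in Ly6Ghigh, 15.6, 17.3 and 16.4 CPM in Ly6Glow and 8.71, 8.17 and 7.75 CPM in NL libraries. The MACRO fractions overlapped and both lay above NL, by 0.88 (edgeR SE 0.0835, adjusted p = 2.17e-09) and 1.00 (edgeR SE 0.086, adjusted p = 4e-10) on the log2 scale. On log2(FPKM + 1) these differences were 0.36 and 0.26 and were not called. The FPKM ratio of *Ptger4* to *Ptger2* was 0.752, 0.714 and 0.704 in Ly6Ghigh, 0.48, 0.46 and 0.476 in Ly6Glow and 2.28, 2.49 and 2.46 in NL libraries. The groups did not overlap, and *Ptger4* exceeded *Ptger2* in the NL libraries alone.

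**Figure D4:**
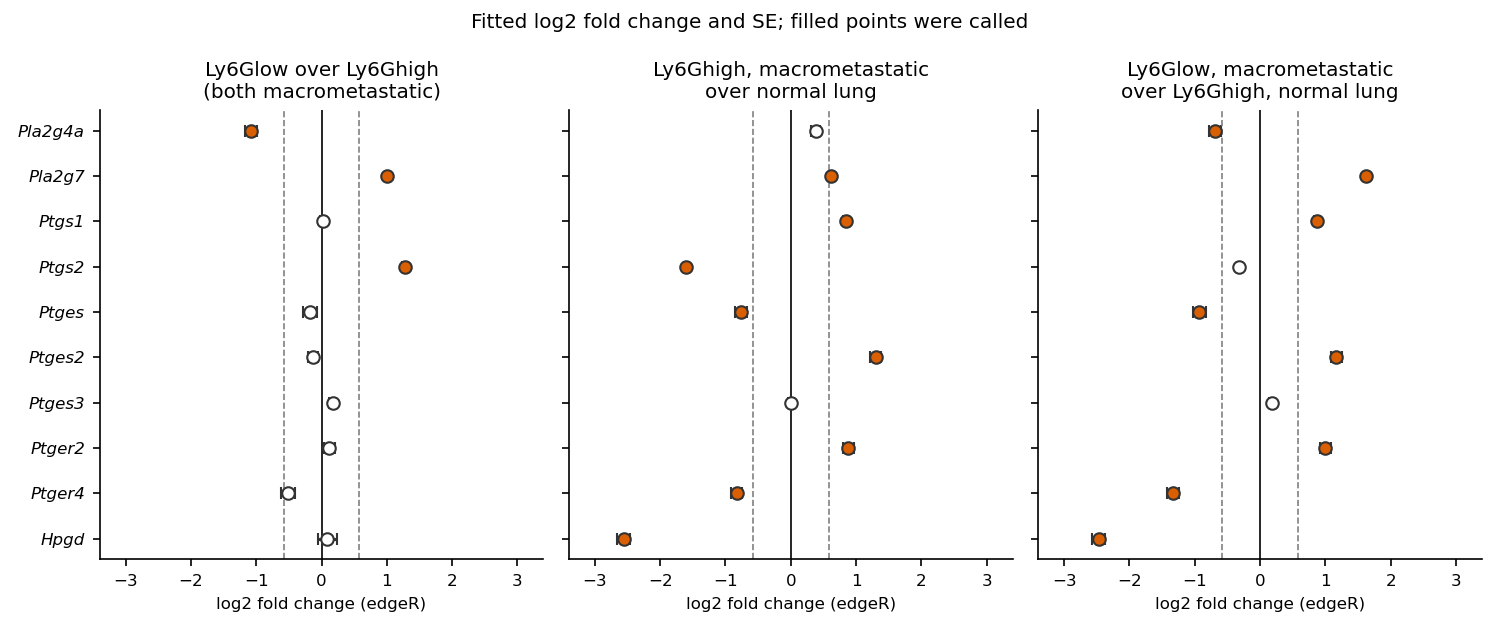
Fitted log2 fold change with its SE for the 10 members in the 3 comparisons, with filled points for called members and dashed lines at the fold-change threshold of 0.58. Ly6Glow over Ly6Ghigh neutrophils has 3 filled points, and each comparison with NL neutrophils has 8.

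Directions were compared over 19 alternative fits with other scalings, filters, samples or models. *Ptgs2*, *Pla2g7*, *Pla2g4a*, *Ptger4*, *Ptges* and *Ptges2* kept their sign in all 19 fits of Ly6Glow over Ly6Ghigh neutrophils. *Hpgd*, *Ptges*, *Ptges2*, *Ptgs1*, *Ptgs2*, *Ptger2*, *Ptger4* and *Pla2g7* did so over NL in both comparisons, and *Pla2g4a* in that of Ly6Glow. Summed FPKM were 569412 to 574415 in Ly6Ghigh, 536662 to 542936 in Ly6Glow and 440567 to 445984 in NL libraries. The median log2 fold change over all tested genes in Ly6Ghigh over NL neutrophils moved from -0.0879 to -0.28 with upper-quartile factors and to -0.324 on log2(FPKM + 1), and in Ly6Glow over NL from -0.156 to -0.346 and -0.489. In the same order, the split of 3712 higher and 5162 lower genes became 2762 and 5755 and then 1429 and 5134, and the split of 4049 and 5760 became 3194 and 6289 and then 1125 and 6438. For Ly6Glow over Ly6Ghigh neutrophils the split of 1310 and 2250 became 1627 and 1967 with RLE factors and 320 and 1923 on log2(FPKM + 1), with medians of 0.0246 and -0.134.

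**Figure D5:**
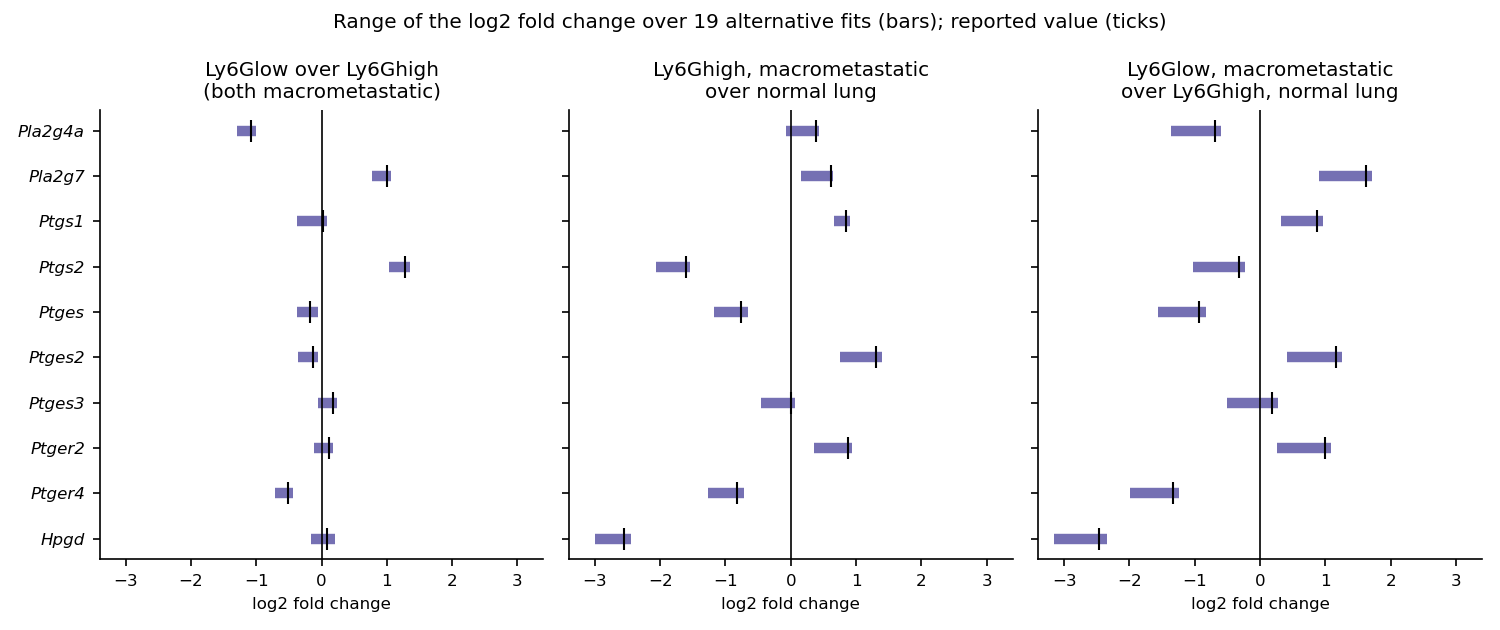
Lowest to highest log2 fold change of each member over 19 alternative fits (bars), with the reported value (ticks), in the 3 comparisons. The bars of *Ptgs2*, *Pla2g7* and *Pla2g4a* in Ly6Glow over Ly6Ghigh neutrophils and of *Hpgd* over NL stay clear of 0, whereas those of *Ptges3* cross 0 in all 3 comparisons.

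Other genes around the members came from 7 lists of 83 symbols, of which 77 had values and 68 were tested. In Ly6Glow over Ly6Ghigh neutrophils 7 were called higher and 14 lower (median log2 fold change -0.10), and over NL 16 were higher and 34 lower for Ly6Ghigh (median -0.67) and 17 higher and 35 lower for Ly6Glow (median -0.69). The shares called among all tested genes were 9.29% higher and 15.9% lower, 26.3% and 36.6%, and 28.7% and 40.8% in the same order of comparisons, so the 21 of 68 called between the MACRO fractions lie near their background of 25.2%. Among other phospholipases, *Plaat3* had 3.89, 3.26 and 15.1 mean CPM in Ly6Ghigh, Ly6Glow and NL libraries, *Pla2g2d* 1.29, 2.01 and 5.73 and *Pla2g4b* 2.25, 3.54 and 5.08. Of 11 tested phospholipases, 1 rose and 1 fell between the MACRO fractions, while 2 rose and 7 fell in either fraction over NL.

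Of 8 tested synthases of other prostanoids, 7 were called lower and 1, *Cbr3* (14.6, 21.2 and 6.36 mean CPM in Ly6Ghigh, Ly6Glow and NL libraries, named after its values were seen), higher in either fraction over NL, where 36.6% and 40.8% of all tested genes were lower, and 1 was lower in Ly6Glow than in Ly6Ghigh neutrophils. Prostacyclin synthase (*Ptgis*) had 2.92, 3.05 and 20.5 mean CPM in Ly6Ghigh, Ly6Glow and NL libraries, and the haematopoietic prostaglandin D synthase (*Hpgds*) 1.22, 0.781 and 5.88. *Akr1b3*, an aldo-keto reductase with prostaglandin F synthase activity, had 19.8, 8.29 and 48.9 mean CPM and was lower in Ly6Glow than in Ly6Ghigh neutrophils (log2 fold change -1.25, edgeR SE 0.101, adjusted p = 5.78e-10). Markers of endothelium and fibroblasts, which express *Ptgis* in lung, were lower in MACRO libraries as given above, and their part in this result was not tested.

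Of 7 other receptors tested, 4 were higher and 3 lower in either fraction over NL. In Ly6Glow over Ly6Ghigh neutrophils, 1 was higher and 3 were lower. Of all tested genes, 62.9% (Ly6Ghigh) and 69.5% (Ly6Glow) were called over NL, and 25.2% were called between the MACRO fractions. The EP1 gene *Ptger1* had 34.3, 37.9 and 17.1 mean CPM in Ly6Ghigh, Ly6Glow and NL libraries and was called higher over NL for Ly6Ghigh (log2 fold change 1.00, edgeR SE 0.0729, adjusted p = 2.43e-11) and Ly6Glow (1.14, edgeR SE 0.0745, adjusted p = 3.11e-12). The prostacyclin receptor gene *Ptgir* had 44.8, 29.4 and 17.2 mean CPM, with -0.61 (edgeR SE 0.0629, adjusted p = 3.27e-08) in Ly6Glow over Ly6Ghigh neutrophils. *Pparg*, a nuclear receptor for lipid ligands and a regulator of alveolar macrophages, had 5.57, 0.925 and 25.9 mean CPM.

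Inactivation and transport held *Slco2a1*, the prostaglandin importer, with 27.2, 33.7 and 176 mean CPM in Ly6Ghigh, Ly6Glow and NL libraries, an order like that of *Hpgd*. *Ptgr1*, a prostaglandin reductase, had 16.6, 5.07 and 6.40 mean CPM and was lower in Ly6Glow than in Ly6Ghigh neutrophils (log2 fold change -1.70, edgeR SE 0.108, adjusted p = 1.18e-11), and *Zadh2*, another such reductase, had 6.21, 4.51 and 13.1 mean CPM. Of 6 tested in this list, 1 rose and 2 fell between the MACRO fractions. In Ly6Ghigh over NL 2 rose and 3 fell, and in Ly6Glow over NL 1 rose and 2 fell. The shares of all tested genes called in these comparisons were 25.2%, 62.9% and 69.5%.

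Genes that handle arachidonate or restrain its release included *Anxa1*, the annexin known to inhibit phospholipase A2, with 6318, 4417 and 1204 mean CPM. *Mboat7*, which returns arachidonate to phosphatidylinositol, had 346, 423 and 122 mean CPM, and *Mgll*, a monoacylglycerol lipase, 22.5, 15.04 and 62.9. Of 8 tested, *Mgll* alone was called in Ly6Glow over Ly6Ghigh neutrophils (lower, log2 fold change -0.58), and 4 rose and 2 fell in either fraction over NL. In the platelet-activating factor list of 7, beside *Pla2g7*, the synthetic enzyme *Lpcat2* had 209, 337 and 123 mean CPM, *Lpcat1* 27.8, 12.6 and 45 and the hydrolase *Pafah2* 8.51, 2.32 and 3.73. *Lpcat2* rose (log2 fold change 0.69, edgeR SE 0.0352, adjusted p = 2.57e-13) and *Lpcat1* fell (-1.14, edgeR SE 0.0757, adjusted p = 2.28e-11) in Ly6Glow over Ly6Ghigh neutrophils. In this list 2 rose and 2 fell between the MACRO fractions. In Ly6Ghigh over NL 2 rose and 1 fell, and in Ly6Glow over NL 3 rose and 3 fell. For both lists, the shares of all tested genes called in these comparisons were 25.2%, 62.9% and 69.5%.

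Downstream of the receptors, 21 cyclic AMP genes were tested, and 2 rose and 4 fell in Ly6Glow over Ly6Ghigh, 1 rose and 11 fell in Ly6Ghigh over NL and 2 rose and 11 fell in Ly6Glow over NL neutrophils. The shares of all tested genes called in either direction were 25.2%, 62.9% and 69.5%. The adenylyl cyclases *Adcy3* (6.87, 1.88 and 29.6 mean CPM in Ly6Ghigh, Ly6Glow and NL), *Adcy4* (5.82, 6.71 and 38.1) and *Adcy6* (2.42, 2.503 and 19.6) were highest in NL libraries.

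Genes whose pattern was most like that of a member were taken by the smallest root mean square difference of centred log2 CPM over the 9 libraries among 7397 genes with a mean of at least 10 CPM. For *Ptgs2* they were *Cyp4f18*, a hydroxylase of leukotriene B4 in neutrophils (difference 0.0849, with 282, 696 and 806 mean CPM in Ly6Ghigh, Ly6Glow and NL libraries), *Selenon* (0.0891), *Crem*, a cyclic AMP-responsive transcription factor (0.0946, with 29.03, 79.5 and 86.8 mean CPM), *Il1rn*, the interleukin-1 receptor antagonist (0.0982, with 276, 625 and 719 mean CPM), and *Ell2* (0.103). For *Ptgs1* they were *Zfp62* (0.0358), *Yipf4* (0.0393), *Trim33* (0.0407), *Med10* (0.0447) and *Uckl1* (0.0455). For *Hpgd* they were *Cxcl15*, a chemokine of lung epithelium (0.121, with 8.88, 9.60 and 58.1 mean CPM), *Calcrl* (0.135), *Fmo2* (0.135), *Spns2* (0.141) and *Rora* (0.144). The likeness is a description over 9 libraries in 3 groups.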

How the data were processed

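RNA was sequenced from 9 libraries of sorted lung neutrophils, 3 in each of 3 groups, as poly(A)-selected, strand-specific, paired-end libraries. The authors deposited an estimated count of reads per gene and library, made without normalization by a program not given in the sources used here, with mm10 as the named build. They also deposited FPKM values, scaled for transcript length and library total. Of the estimated counts 37.9% were whole, and all were rounded. Of 22064 genes 3739 were blank, 18325 had values and 14108 passed edgeR's filterByExpr. Totals of 15267177 to 17841807 counts bound the precision of low genes, and the biological coefficient of variation was 0.0346. 

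Counts were fitted in R 4.3.3 with edgeR 4.0.16 (TMM factors of 0.803 to 1.32, quasi-likelihood F test, 1 model of 9 libraries). Benjamini-Hochberg adjustment covered all 14108 genes, and a call needed a log2 fold change beyond 0.58 in either direction with an adjusted p not above 0.05. The SE is the log2 fold change divided by the square root of F. Scripts were tested on simulated data. Alternatives were RLE and upper-quartile factors, DESeq2 1.42.0, other filters and thresholds, 6 libraries alone, limma 3.58.1 on log2 FPKM after adding 1 or 0.1, the replicate number as a block, and the omission of single replicates. The *Ptgs2* to *Ptgs1* ratio was tested with SciPy. Named genes were all members, the 5 genes most like *Ptgs2*, *Ptgs1* and *Hpgd*, and at most 3 called genes with the largest log2 fold change per list at 5 CPM or more, and *Ly6g*, cell markers and dissociation genes were added as context. The markers named singly were chosen after their values were seen. Members and lists were chosen with earlier results of these data known, and the lists were written from general knowledge. Groups of 3 libraries are too small for a test of single outlying libraries.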

Additional observations from a re-analysis of the deposited data

How the results depend on the processing

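Each of 30 values (1 per member and comparison) was refitted. RLE factors, DESeq2, no filter on low counts, the 6 libraries of a comparison alone and the replicate block left every direction and call as reported. Replicate numbers carried no stated pairing and same-numbered libraries did not deviate together (correlations of -0.0683 to 0.0766). With the replicate block 3522, 8856 and 9775 genes were called in Ly6Glow over Ly6Ghigh, Ly6Ghigh over NL and Ly6Glow over NL neutrophils, against 3560, 8874 and 9809 without it.

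Directions turned only for values under the fold-change threshold in the count model, and not all of these were near 0. *Pla2g4a* in Ly6Ghigh over NL was 0.38 there (edgeR adjusted p = 6.55e-05) and *Ptges3* in Ly6Glow over NL was 0.18 (edgeR adjusted p = 0.0011). *Ptges3* was -0.18 (Ly6Ghigh over NL) and -0.0056 (Ly6Glow over NL) with upper-quartile factors and -0.16 (Ly6Ghigh over NL) at 10 counts or more in every library. On log2(FPKM + 1), with or without a filter at 1 FPKM, Ly6Glow over Ly6Ghigh was -0.36 for *Ptgs1*, -0.062 for *Ptges3*, -0.10 for *Ptger2* and -0.13 for *Hpgd*, Ly6Ghigh over NL was -0.44 for *Ptges3* and -0.069 for *Pla2g4a*, and Ly6Glow over NL was -0.50 for *Ptges3*. With 0.1 added these were -0.38, -0.064, -0.12, -0.16, -0.45, -0.078 and -0.51. Leaving out 1 replicate at a time moved *Ptgs1* in Ly6Glow over Ly6Ghigh between -0.022 (without Ly6Ghigh replicate 1) and 0.054, and *Ptges3* in Ly6Ghigh over NL between -0.014 (without NL replicate 1) and 0.0605, with -0.0022 without NL replicate 3.

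Counts of called members moved too. In Ly6Glow over Ly6Ghigh neutrophils the number lower was 2 in place of 1 with no fold-change threshold, on log2(FPKM + 0.1) and without Ly6Ghigh replicate 3, and ranged from 1 to 2 when 1 replicate was left out. The other pathway genes called there numbered 40 with no fold-change threshold and 10 with a threshold of 1, against 21. With a threshold of 1, members called in Ly6Ghigh over NL were 1 higher and 2 lower in place of 4 and 4, and those lower in Ly6Glow over NL were 2 in place of 4. On FPKM, with each pseudocount and filter, 2 were higher in Ly6Ghigh over NL and 1 in Ly6Glow over NL in place of 4 and 4. The log2 difference of the *Ptgs2* to *Ptgs1* ratio was 1.26, -2.45 and -1.19 from counts against 1.43, -2.79 and -1.37 from FPKM, since FPKM divided *Ptgs1* by a length that differed between groups. Depth limited the least abundant members, and the widest SE between the MACRO fractions was that of *Hpgd* (0.142).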
